A study of Mus musculus with 9 samples.

Results

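Immediate early genes are induced within minutes by serum, growth factors or stress, before any new protein has to be made, and most encode short-lived transcription factors or small regulators. In embryonic stem cells grown in serum they respond to signalling through the kinase ERK, in part through serum response factor and its partners. Fos and Jun proteins pair through leucine zippers to form the factor AP-1, and Egr proteins are zinc finger factors induced by the same signals. The 10 genes described here are Fos, Fosb, Jun, Junb, Jund, Egr1, Egr2, Ier2, Ier3 and Atf3, taken as the rows of the deposited counts that carry one of these symbols, alone or merged with another. They make up 10 of 30232 gene rows, and 10 of 10 are among the 12645 genes that passed the filter on low counts. The list was proposed because earlier results of these data showed immediate early genes higher in knockout libraries, so the knockout differences of the 10 genes are given as a description and support nothing.

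The material was polyadenylated RNA of mouse embryonic stem cells, sequenced from the 3' ends of transcripts by MARS-seq2.0 in 9 libraries, 4 of wild-type cells and 5 of cells with a Gzf1 knockout. All were grown on irradiated fibroblast feeders in serum with LIF, and feeders were depleted before harvest. The RGM line supplied both genotypes of sequencing run2, as replicates 1 and 2 of each. The V6.5 line supplied the knockouts of run1 (replicates 3, 4 and 5) and wild-type replicate 3, while wild-type replicate 4 came from a Cas9-GFP line, so that the wild-type libraries of run1 come from different lines and the V6.5 knockouts have 1 wild-type library of their own line. Run and the RGM line coincide and cannot be told apart. The labels do not give the position of the Gzf1 edit, the number of clones or whether replicates were separate cultures, so p-values measure only how far these libraries spread, and that spread may be technical.

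Library totals were 2568489 to 3704162 counts in run2 and 4872127 to 7072697 in run1, and levels are given as counts-per-million (CPM). The floor of 3 counts came to 0.412 to 1.18 CPM. It covers counting error only. The 10 genes lay above it in every library. Gzf1 was at 8.11 to 30.0 CPM in wild-type and 1.66 to 14.2 CPM in knockout libraries, and a 3' count outside an edited part does not check the edit. The 12 stem cell markers were detected in all 9 libraries, with a summed level of 5967 to 7609 CPM. Fibroblast markers (20 genes) summed to 2524 to 4140 CPM in run2 and 1363 to 2082 CPM in run1. In bulk RNA, fewer cells of a type and less RNA per cell cannot be told apart.

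Sequence before the start of transcription was available for 8 of the 10 genes in the RefSeq promoter table (build GRCm38.p6, the assembly also called mm10). Each window of 250 bases was searched on both strands for the CArG box bound by serum response factor, for TGACGT, the core of the cyclic AMP response element, for TGANTCA, the AP-1 site, and for TGANNTCA, its longer form, which overlaps TGACGT where the middle bases are C and G. The windows of Fos, Jun and Egr2 are shown because each holds a different set of matches. No GENCODE exon lies in them, and that of Egr2 is inside the annotated gene. Capitals mark the matches, 5′ to 3′ on the strand of the gene.
Fos (chr12:85473640-85473889, plus strand): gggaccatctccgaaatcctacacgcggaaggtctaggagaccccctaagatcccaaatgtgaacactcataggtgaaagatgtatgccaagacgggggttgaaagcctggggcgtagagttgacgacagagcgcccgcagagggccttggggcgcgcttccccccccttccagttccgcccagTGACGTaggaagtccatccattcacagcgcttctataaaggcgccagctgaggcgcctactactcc
Jun (chr4:95052223-95052472, minus strand): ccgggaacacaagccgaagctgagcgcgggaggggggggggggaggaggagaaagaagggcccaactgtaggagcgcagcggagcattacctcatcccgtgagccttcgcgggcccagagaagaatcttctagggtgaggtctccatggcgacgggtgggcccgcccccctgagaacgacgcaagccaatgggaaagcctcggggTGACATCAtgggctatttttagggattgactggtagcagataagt
Egr2 (chr10:67537619-67537868, plus strand): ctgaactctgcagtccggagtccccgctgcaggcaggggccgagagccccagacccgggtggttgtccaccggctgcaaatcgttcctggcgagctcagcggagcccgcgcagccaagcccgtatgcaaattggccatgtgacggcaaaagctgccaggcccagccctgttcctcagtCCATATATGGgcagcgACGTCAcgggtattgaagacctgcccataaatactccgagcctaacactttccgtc

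The Fos window holds TGACGT 66 bases before the start, the Jun window holds TGACATCA, a form of TGANNTCA, 45 bases before the start, and the Egr2 window holds a CArG box 72 bases before the start with TGACGT on the other strand 56 bases before it. Among all 32851 windows of this length, 1.47% hold a CArG box, 6.47% TGACGT, 6.75% TGANTCA and 11.9% TGANNTCA. Of the 8 genes with a window, 1 has a CArG box (Egr2), 3 have TGACGT (Fos, Egr2 and Atf3), 2 have TGANNTCA (Jun and Jund) and 0 have TGANTCA. Egr1 and Ier2 had no window and were not searched. Bases further upstream than 250 were not searched either, so a window without a match does not show that a gene lacks the motif. Egr2 has several annotated starts, and the one printed was chosen for its matches. The windows of Jund and Atf3 also belong to other starts than those of the gene positions given below. That of Jund (chromosome 8, 70697489 to 70697738) ends before the position given and does not adjoin it. That of Atf3 (chromosome 1, 191183334 to 191183583) lies inside the annotated gene. The motifs were chosen with these sequences in view, and a match is a description of letters, not of a bound site.

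Fos and Fosb encode the Fos partners of AP-1. Fos (chromosome 12, 85473890 to 85477273) was at 64.4 and 73.0 CPM in the RGM wild-type libraries and 77.2 and 56.0 CPM in the RGM knockouts. In run1 it was at 69.9 CPM in V6.5 wild type, 38.6 CPM in the Cas9-GFP line and 94.2, 76.9 and 123 CPM in knockout replicates 3, 4 and 5. These run1 groups had means of 54.3 ± 22.1 (SD, n = 2) and 98.0 ± 23.4 CPM (SD, n = 3). The RGM genotypes overlapped, while in run1 the 3 knockouts lay above both wild-type libraries. Relative to wild type the log2 fold change in knockout libraries was -0.04 (SE 0.30) in run2 and 0.85 (SE 0.27) in run1. The size in run1 depended on the wild-type library used, since it was 0.49 without the Cas9-GFP library (wild-type replicate 4) and 1.34 without the V6.5 wild type (wild-type replicate 3).

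Fosb (chromosome 7, 19302696 to 19310051) was at 83.3 and 79.7 CPM in RGM wild type and 75.6 and 91.6 CPM in RGM knockouts. In run1 it was at 33.5 CPM in V6.5 and 21.7 CPM in Cas9-GFP wild type, against 50.5, 57.2 and 72.4 CPM in the V6.5 knockouts, which gave means of 27.6 ± 8.38 (SD, n = 2) and 60.0 ± 11.3 CPM (SD, n = 3). As for Fos, the run1 genotypes did not overlap and the RGM genotypes did. The 5 run1 libraries all lay below the 4 RGM libraries, so the run1 knockouts were nearer to the RGM level than the run1 wild types were. In knockout against wild type the log2 value was 0.03 (SE 0.25) for run2 and 1.11 (SE 0.24) for run1, the largest value among the 10 genes, and 0.84 without the Cas9-GFP library.

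The Jun genes, whose products pair with Fos proteins or with each other, showed smaller knockout differences. Jun (chromosome 4, 95049034 to 95052222) was at 49.6 and 56.0 CPM in RGM wild type, 60.9 and 51.3 CPM in RGM knockouts, 60.0 CPM in V6.5 wild type, 32.8 CPM in Cas9-GFP wild type and 36.8, 43.2 and 50.0 CPM in the V6.5 knockouts. The genotypes overlapped in both runs, and the 3 V6.5 knockouts lay above the Cas9-GFP library but below the V6.5 wild type. The log2 fold change in run1 was -0.11 (SE 0.25) with both wild-type libraries, 0.40 without the V6.5 wild type and -0.47 without the Cas9-GFP library. An annotated antisense gene, Junos, overlaps Jun, and no source used here gives the strand handling, so their reads cannot be told apart.

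Junb (chromosome 8, 84974484 to 84978718), a partner that can restrain Jun, is counted in a row merged with the transcript AK006748, and the gene Prdx2 overlaps it on the other strand. Its row was at 227 and 258 CPM in RGM wild type, 216 and 282 CPM in RGM knockouts, 152 CPM in V6.5 and 128 CPM in Cas9-GFP wild type, and 151, 172 and 136 CPM in the V6.5 knockouts. Genotypes overlapped in both runs, and every RGM library lay above every run1 library. The log2 fold change in knockout libraries was 0.04 (SE 0.20) in run2 and 0.13 (SE 0.18) in run1.

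Jund (chromosome 8, 70698949 to 70700616), a Jun family member often expressed without induction, had the opposite order of runs. It was at 75.7 and 59.2 CPM in RGM wild type and 66.3 and 57.2 CPM in RGM knockouts, against 136 CPM in V6.5 wild type, 90.1 CPM in Cas9-GFP wild type and 139, 68.1 and 159 CPM in knockout replicates 3, 4 and 5. Replicate 4 lay far below the other V6.5 libraries, at the level of the RGM cells. The log2 fold change in knockout libraries was -0.13 (SE 0.36) in run2 and 0.11 (SE 0.31) in run1, where it was -0.15 without the Cas9-GFP library. An annotated antisense gene, Gm11175, overlaps Jund.

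**Figure D1:**
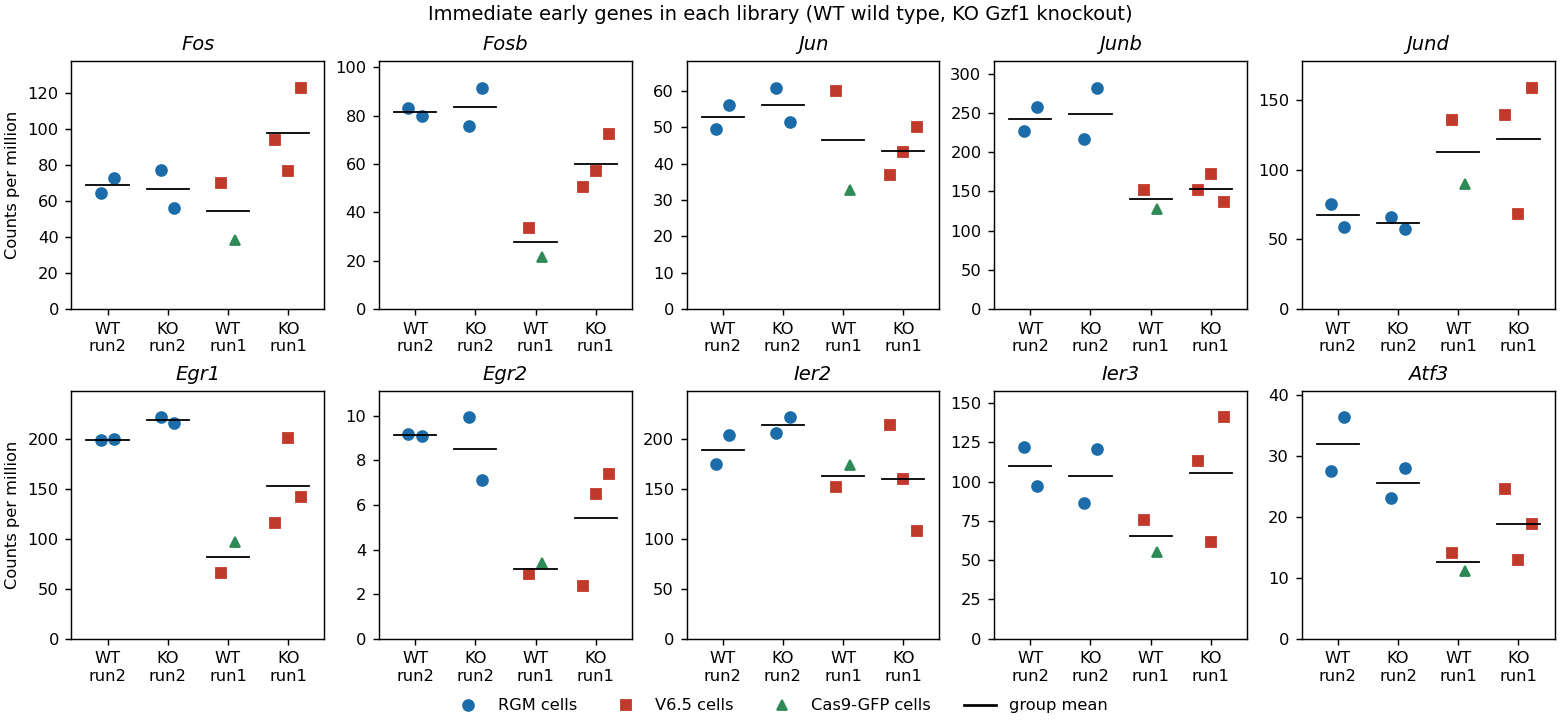
Each panel plots 1 gene, with counts-per-million on the vertical axis from 0 and each library as a point, grouped by genotype (WT wild type, KO Gzf1 knockout) and run; shape and colour give the cell line and the line the group mean. In run1 the 3 knockout libraries lie above both wild-type libraries for Fos, Fosb and Egr1, and in run2 the genotypes overlap for 8 of the 10 genes.

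The Egr genes encode zinc finger factors, of which Egr1 is a sensor of ERK signalling. Egr1 (chromosome 18, 34859823 to 34864984) was at 198 and 199.7 CPM in RGM wild type and 221 and 216 CPM in RGM knockouts. In run1 it was at 65.8 CPM in V6.5 and 96.7 CPM in Cas9-GFP wild type and at 116, 201 and 142 CPM in the V6.5 knockouts, with means of 81.2 ± 21.8 (SD, n = 2) and 153 ± 43.7 CPM (SD, n = 3). Egr1 was the gene of the list in which the knockout lay above wild type without overlap in each run. Its log2 fold change was 0.14 (SE 0.25) in RGM cells and 0.91 (SE 0.24) in run1, and 0.66 to 1.21 when 1 library of run1 was left out, the highest value being that without the Cas9-GFP library. The 95% interval in RGM cells, -0.41 to 0.69 on the log2 scale, does not exclude a difference of either sign.

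Egr2 (chromosome 10, 67535475 to 67542188) was counted at 17 to 45 counts per library, the lowest of the list. It was at 9.17 and 9.08 CPM in RGM wild type, 9.93 and 7.10 CPM in RGM knockouts, 2.88 CPM in V6.5 and 3.39 CPM in Cas9-GFP wild type, and 2.35, 6.47 and 7.38 CPM in knockout replicates 3, 4 and 5. Knockout replicate 3 was the lowest library of all and the other V6.5 knockouts lay above both wild types, so the genotypes overlapped. For RGM cells the log2 fold change was -0.09 (SE 0.52), and for run1 it was 0.77 (SE 0.48), or 0.45 without knockout replicate 5.

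Ier2 and Ier3 are small regulators induced with the transcription factors, Ier2 nuclear and Ier3 linked to survival signalling. Ier2 (chromosome 8, 84661331 to 84662852) was at 175 and 204 CPM in RGM wild type, 206 and 222 CPM in RGM knockouts, 152 CPM in V6.5 and 174 CPM in Cas9-GFP wild type, and 214, 160 and 108 CPM in knockout replicates 3, 4 and 5. The V6.5 knockouts spanned both wild types, and in RGM cells both knockouts lay above both wild types by a small margin. Its log2 fold change was 0.18 (SE 0.26) in run2 and -0.02 (SE 0.24) in run1.

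Ier3 (chromosome 17, 35821684 to 35822923) was at 122 and 97.5 CPM in RGM wild type, 86.5 and 121 CPM in RGM knockouts, 75.7 CPM in V6.5 and 55.4 CPM in Cas9-GFP wild type, and 113, 61.8 and 141 CPM in knockout replicates 3, 4 and 5. Replicates 3 and 5 were high and replicate 4 lay between the wild types, an order of the V6.5 knockouts shared with Jund. Its log2 fold change was -0.09 (SE 0.33) in run2 and 0.68 (SE 0.30) in run1, which was 0.42 without knockout replicate 5.

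Atf3, a stress-induced relative of the Fos and Jun proteins that mostly represses, lies on chromosome 1 (191170296 to 191218039). It was at 27.5 and 36.3 CPM in RGM wild type, 23.1 and 28.0 CPM in RGM knockouts, 14.0 CPM in V6.5 and 11.1 CPM in Cas9-GFP wild type, and 24.6, 12.9 and 18.9 CPM in knockout replicates 3, 4 and 5. Genotypes overlapped in both runs, and knockout replicate 4 lay between the run1 wild types. Knockout against wild type, the log2 value was -0.32 (SE 0.33) in run2 and 0.58 (SE 0.30) in run1, where it was 0.34 without knockout replicate 3.

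**Figure D2:**
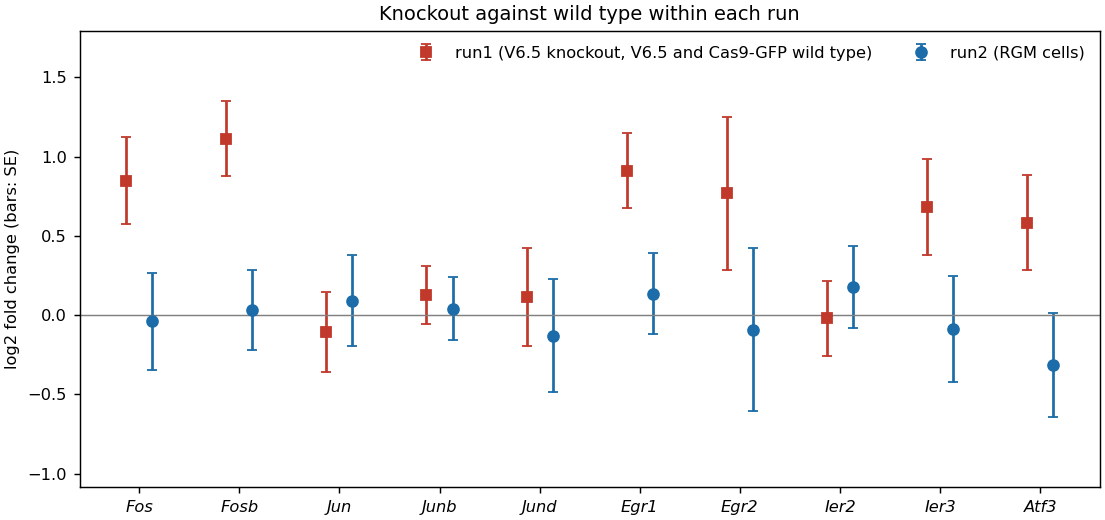
Log2 fold change of knockout against wild type for the 10 genes (horizontal axis), with SE bars, in run1 (squares) and run2 (circles). Run1 values of Fos, Fosb, Egr1, Egr2, Ier3 and Atf3 lie between 0.58 and 1.11, while the 10 run2 values lie between -0.32 and 0.18.

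Within run1 the higher values were those of Fos, Fosb, Egr1, Egr2, Ier3 and Atf3, and not of the 3 Jun genes or Ier2. In run1 8 of 10 log2 fold changes were positive (median 0.63), in run2 5 of 10 (median 0.00), and over all libraries 9 of 10 (median 0.26). The last median was 0.14 to 0.35 with 1 library left out, the lowest values being 0.14 without the Cas9-GFP library and 0.17 without knockout replicate 5. Over all 12645 tested genes the medians were 0.02, 0.01 and 0.01. For 3 of the 10 genes in run1 and 2 in run2 (Egr1 and Ier2) the knockouts lay above the wild types without overlap, against 6.42% of all genes in run1 and 18% in run2, and for 0 of 10 over all 9 libraries, against 0.198%. Because the list was chosen on this contrast, nothing is read from these shares. edgeR's quasi-likelihood test with Benjamini-Hochberg adjustment called 0 of the 10 genes over all libraries (0.0316% of all genes called), 0 in run1 (0.0158%) and 0 in run2 (0%). The numbers with an unadjusted p under 0.05 were 2, 4 and 0, beside 293, 485 and 104 of all 12645 genes. DESeq2 and limma voom called 0 of the 10 in each of the 3 contrasts, and edgeR without the filter on low counts called Fosb (adjusted p = 0.0047) and Egr1 (adjusted p = 0.011) in run1. Over all libraries the median was 0.06 with limma voom.

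Whether the higher levels were limited to run1 was put to the difference of the knockout effects, run1 minus run2. It was 0.89 (95% interval 0.00 to 1.77) for Fos, 1.08 (0.33 to 1.83) for Fosb, 0.78 (0.03 to 1.53) for Egr1 and 0.90 (-0.06 to 1.86) for Atf3, all as log2 values. For Ier3 it was 0.77 (-0.21 to 1.75) and for Egr2 0.86 (-0.66 to 2.38). The Jun genes and Ier2 had values between -0.20 and 0.24. The value for Fos was 0.53 without the Cas9-GFP library and 1.38 without the V6.5 wild type, and that for Egr2 was 0.55 without knockout replicate 5. edgeR called 0 of the 10 differences at the adjusted threshold, as of all 12645 genes (0%), and DESeq2 and limma voom also called 0 of the 10. At an unadjusted p under 0.05 in edgeR there were 3 of the 10, beside 182 of all 12645 genes. Since the list was chosen on knockout differences of these same libraries, these differences are a description too, and nothing on a limit to run1 is read from them. In simulated counts this contrast recovered 3% of genes with a 2-fold difference and 59% with a 4-fold difference. The median difference of the 10 genes was 0.77, and 0.53 to 0.75 when 1 library was left out.

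The values of run1 depended on which wild-type library was used. With 1 wild-type library per line, a difference of lines cannot be told apart from a difference of libraries. The mean of the V6.5 knockouts was above the Cas9-GFP wild type for 9 of 10 genes and above the V6.5 wild type for 8 of 10. Cas9-GFP wild type was the lowest of the 9 libraries for 6 of the 10 genes (Fos, Fosb, Jun, Junb, Ier3 and Atf3), and V6.5 wild type lay above it for 7. The shares of all tested genes with these orders were not counted. Since the list was chosen on knockout differences of these libraries, nothing is read from the counts. Within V6.5 cells, with 1 wild-type library and therefore without a replicate check, the knockout mean was 1.40-fold the wild type for Fos, 1.79-fold for Fosb, 2.32-fold for Egr1, 1.87-fold for Egr2, 1.39-fold for Ier3 and 1.34-fold for Atf3. On the same scale it was 0.722-fold for Jun, 1.01-fold for Junb, 0.900-fold for Jund and 1.06-fold for Ier2. The median log2 fold change of the 10 genes in run1 was 0.45 without the Cas9-GFP library and 0.44 without knockout replicate 5.

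**Figure D3:**
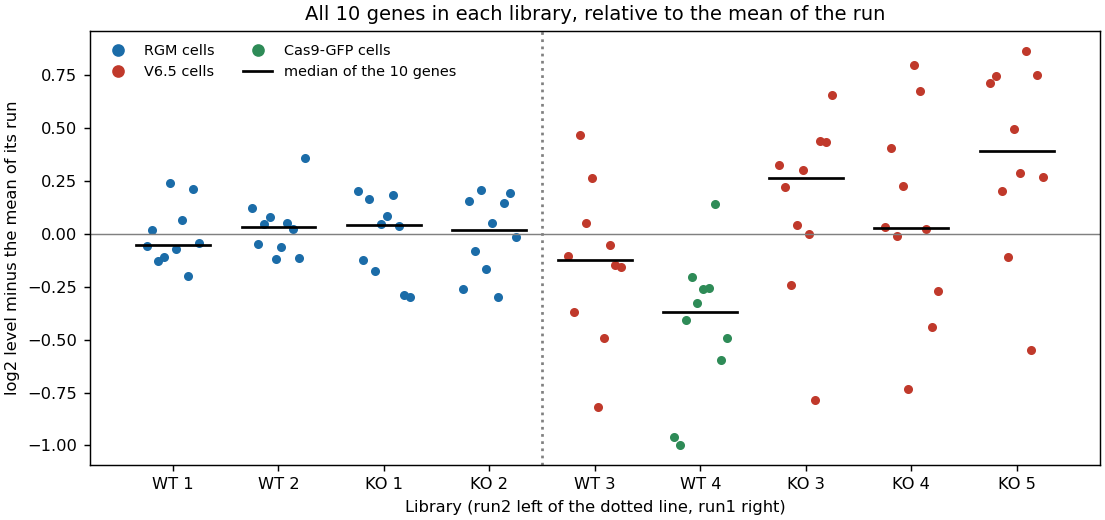
For each library (horizontal axis) the 10 genes are plotted as points at their log2 level minus the mean of that gene over the libraries of the same run; lines are medians of the 10 genes and colours give the cell line. Medians lie between -0.05 and 0.04 in the 4 RGM libraries and run from -0.37 in the Cas9-GFP library to 0.39 in knockout replicate 5 of run1.

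The V6.5 knockouts did not move as 1 block. Relative to the run1 mean, 8 of 10 genes were above it in knockout replicate 5, 7 in replicate 3 and 6 in replicate 4, against 3 in V6.5 and 1 in Cas9-GFP wild type. Replicate 5 was the highest run1 library for 5 genes (Fos, Fosb, Jund, Egr2 and Ier3) and the lowest for Ier2, whereas replicate 4 was the highest for Junb and Egr1. For these counts per library the shares of all tested genes were not counted. The list was chosen because its genes were higher in knockout libraries, so a split of knockout from wild type is built in. Nothing is read from it. The highest library was 3.19-fold (Fos) and 3.34-fold (Fosb) above the lowest in run1, and 1.38-fold and 1.21-fold in run2, where all libraries are RGM cells.

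Between the runs the wild-type libraries differed for several of the 10 genes, in a contrast that shares its run1 wild-type libraries with the knockout contrast of run1. A low level there raises both, so the calls are not independent of how the list was chosen, and their number is not evidence about the list. Over all libraries, run2 lay above run1 without overlap for Fosb and Junb and below for 0 genes (19.4% and 19.2% of all genes). In wild type, run2 lay above run1 without overlap for 7 of 10 genes and below for Jund, against 35.4% and 35.5% of all genes. By edgeR's quasi-likelihood test 4 of 10 genes were higher in run2 and 0 lower (12.1% and 12.3% of all genes). These were Fosb with a log2 difference of 1.56 (SE 0.26, adjusted p = 0.0018), Egr1 with 1.30 (SE 0.26, adjusted p = 0.0044), Atf3 with 1.33 (SE 0.33, adjusted p = 0.013) and Junb with 0.79 (SE 0.20, adjusted p = 0.014). Egr2 had 1.54 (SE 0.53, adjusted p = 0.0502), Ier3 0.74 (SE 0.33, adjusted p = 0.12), Jund -0.74 (SE 0.35, adjusted p = 0.14), Fos 0.33 (SE 0.30, adjusted p = 0.45), Ier2 0.22 (SE 0.26, adjusted p = 0.58) and Jun 0.18 (SE 0.28, adjusted p = 0.68), none past the threshold.

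Leaving out any 1 of the 9 libraries did not end the call of Fosb. For Egr1 the edgeR call ended without wild-type replicate 3 (adjusted p = 0.0505), that of Atf3 without wild-type replicate 2 (0.11) or 4 (0.090) and that of Junb without wild-type replicate 1 (0.062), 2 (0.11) or 4 (0.098), all as adjusted p. Jun and Fos had log2 differences of -0.19 and -0.03 without the Cas9-GFP library, the direction of each being turned. limma voom and edgeR without the filter also called Egr2, Ier3 and Jund.

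The run difference in knockout libraries shares the run1 knockouts with the knockout contrast, and a high level there lowers it. The median of the 10 genes was 0.42 against 0.77 in wild type, with 1 higher and 1 lower in run2 by the same test (12.6% and 12.4% of all genes, 25% in either direction). Junb was higher in run2 by a log2 difference of 0.70 (SE 0.18, adjusted p = 0.014) and Jund lower, with a log2 difference of -0.98 (SE 0.33, adjusted p = 0.046). Run2 lay above run1 without overlap for 4 genes and below for 1, against 26.3% and 26.2% of all genes. Fosb had 0.48 (SE 0.23, adjusted p = 0.15), Egr1 0.52 (SE 0.23, adjusted p = 0.12) and Fos -0.56 (SE 0.28, adjusted p = 0.16). Other settings called Egr1 (limma voom, adjusted p = 0.018, and edgeR without knockout replicate 4, adjusted p = 0.013), Fos (edgeR without the filter, adjusted p = 0.047) and Ier2 (edgeR without knockout replicate 3, adjusted p = 0.037). The change in the run difference from wild type to knockout is the same quantity as the difference of knockout effects given above. The call of Junb ended without knockout replicate 2 (adjusted p = 0.19), and that of Jund without knockout replicate 1 (0.17), 2 (0.25), 3 (0.10) or 5 (0.096), or without the first (0.064) or the second (0.065) RGM wild type, as adjusted p from edgeR.

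**Figure D4:**
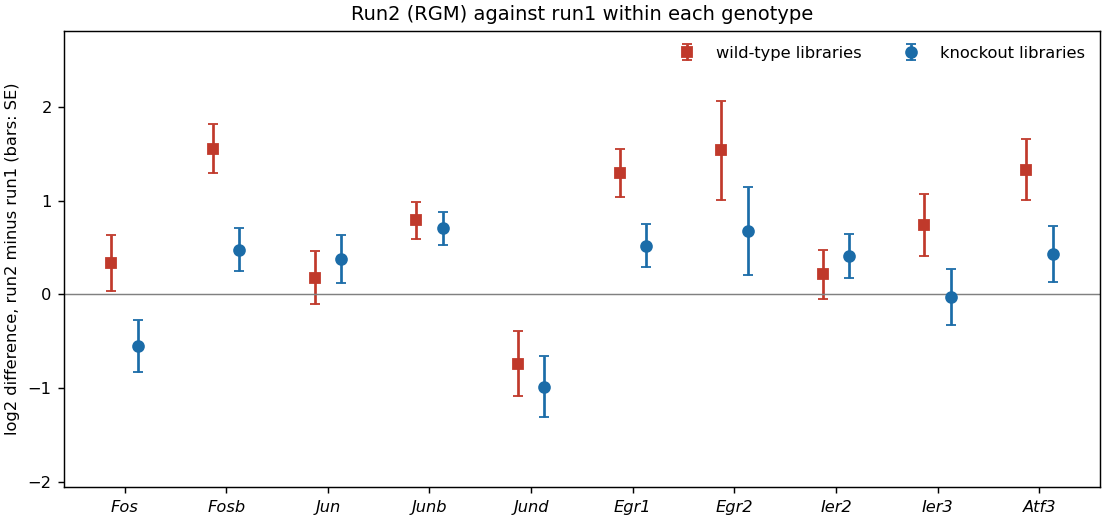
Log2 difference of run2 (RGM cells) minus run1 for the 10 genes, with SE bars, in wild-type (squares) and knockout libraries (circles). Wild-type values reach 1.56 for Fosb and are below 0 for Jund, and knockout values lie between -0.98 and 0.70.

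Other genes of the response were read from lists taken from general knowledge of the pathway. Among 12 tested other immediate early factors, edgeR called 0 in the knockout over all libraries (0 at an unadjusted p under 0.05; DESeq2 and limma voom were not counted for the lists), and 9 were positive with a median log2 fold change of 0.03. In run1 their median was 0.02, with 7 positive and 5 negative, and in run2 it was 0.17. Klf2, the most abundant, had -0.32 (SE 0.18) in run1, not called. It was at 294 (V6.5) and 353 CPM (Cas9-GFP) in wild type, above the 262, 231 and 284 CPM of the V6.5 knockouts. Nr4a1, an orphan nuclear receptor induced with Egr1, was at 33.0 (V6.5) and 55.6 CPM (Cas9-GFP) in wild type, against 42.9, 67.5 and 35.2 CPM in the V6.5 knockouts, which overlapped, with a log2 fold change of 0.13 (SE 0.29). Bhlhe40, a helix-loop-helix repressor named after its values were seen, had 0.87 (SE 0.48) in run1 with knockout replicate 5 at 166 CPM and replicate 4 at 34.2 CPM.

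Feedback and effector genes (28 tested) had a median of 0.12 over all libraries, 20 of them positive and 0 called (0 at an unadjusted p under 0.05), and medians of 0.08 in run1 and 0.10 in run2. In run1 2 of the 28 had an unadjusted p under 0.05, in opposite directions, beside 485 of all 12645 genes. Sgk1 had -0.48 (SE 0.18) in run1, not called, with wild-type levels of 298 and 278 CPM above the knockout levels of 246, 211 and 164 CPM. Dusp1, a phosphatase that switches off MAP kinases, had 0.44 (SE 0.19) in run1, not called, with wild-type levels of 66.9 and 67.3 CPM below the knockout levels of 78.9, 87.9 and 107 CPM. Between runs 9 of the 28 were higher in run2 wild type and 2 lower, beside 12.1% and 12.3% of all genes. Dusp4, another such phosphatase, was higher by a log2 difference of 3.54 (SE 0.43, adjusted p = 0.00038), by edgeR's quasi-likelihood test. Among the 12 other immediate early factors 2 were higher and 1 lower in run2 wild type, beside the same shares of all genes. Ier5, of the Ier family and of that list, was higher by 2.00 (SE 0.32, adjusted p = 0.0015) in the same test. AP-1 partners and relatives (15 tested) had a knockout median of 0.01 with 8 positive, and serum response factor with the ERK relay (17 tested) 0.00 with 9 positive. In both lists 0 genes were called, with 1 and 0 at an unadjusted p under 0.05. Srf itself, named after its values were seen, had -0.02 (SE 0.25).

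Heat shock genes, a sign of stress at harvest, had a knockout median of -0.10 over 10 genes with 8 negative and 0 called (0 at an unadjusted p under 0.05). Their summed level was 3891 to 4232 CPM in wild type and 3708 to 4395 CPM in knockouts of run1, which overlapped. In run2 it was 2831 to 2836 CPM in wild type and 2508 to 2621 CPM in knockouts, without overlap. There 8 of the 10 were negative, with a median of -0.17 and 0 called. In run1 3 of the 10 were positive and 7 negative, with a median of -0.03. Hspa1a and Hspa1b, which are inducible, had 0.32 (SE 0.41) and 0.23 (SE 0.40) in run1. They were higher in run2 wild type by 1.81 (SE 0.45, adjusted p = 0.013) and 1.57 (SE 0.44, adjusted p = 0.024), by edgeR's quasi-likelihood test. In the same test 2 of the 10 were lower in run2 wild type, Hspa8, a constitutive chaperone, with -5.45 (SE 0.26, adjusted p = 3.4e-07) and Hsph1 with -1.75 (SE 0.27, adjusted p = 0.0011).

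Fibroblasts, which express Fos and Egr1 strongly, could remain from the feeders. Of 18 tested fibroblast markers 8 were higher and 0 lower in run2 wild type, beside 12.1% and 12.3% of all genes, and their knockout median in run1 was 0.21 with 14 positive and 0 called. Their summed level in run1 was 1363 and 1763 CPM in wild type and 1473 to 2082 CPM in knockouts, which overlapped, and of the 20 rows at most 2 were at 0 in any library (Lum and Fap in V6.5 wild type, Fap also in knockout replicates 3 and 4; both were named after their values were seen). Fn1, the most abundant, had 0.21 (SE 0.17) in run1. Primitive endoderm markers (13 rows, 8 tested) summed to 670 and 799 CPM in run1 wild type and 845 to 873 CPM in run1 knockouts, without overlap, with a median of 0.25 in run1, 5 of 8 positive, 0 called and 3 at an unadjusted p under 0.05 (Dab2 0.93, Lamb1 0.38 and Pdgfra 1.35, as log2 fold changes). The negative values were those of Gata4, a defining factor, with -0.21 (SE 0.58), of Lama1 with -0.09 and of Amn with -0.05. Gata4 and Lama1 were named after their values were seen. Several of the endoderm markers, such as Sparc and Lamb1, are also made by fibroblasts. Sparc alone made up most of the summed endoderm level. In run1 it was at 659 (V6.5) and 529 CPM (Cas9-GFP) in wild type and 738, 641 and 672 CPM in the knockouts, which overlapped. Gata6, a defining endoderm factor below the count filter and named after its values were seen, had 88 counts in knockout replicate 5, which was also the highest run1 library for 5 of the 10 immediate early genes, and 3 to 15 counts in the other 8 libraries. The endoderm factors Sox17 and Foxa2 were also named after their values were seen. Sox17 had 10 to 24 counts in run1 and 1 or 2 in run2, and Foxa2 was at 0 in V6.5 wild type and knockout replicate 3 and at 1 to 6 counts elsewhere. The part of fibroblast or endoderm cells in the levels of the 10 genes was not tested.

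The genes whose run-centred log2 profile over the 9 libraries differed least from that of Fos were Cabp1 (counted with AK084080; root mean square difference 0.12), Zer1 (0.13) and Spice1 (0.14), among 9289 genes with a mean of at least 10 CPM whose median difference was 0.48. For Egr1 they were Aim1l (0.14), Camk1d (0.14) and AK205379 (0.16), against a median of 0.46. Zer1, for example, was at 20.5 CPM in V6.5 and 9.24 CPM in Cas9-GFP wild type and 21.8, 18.2 and 27.0 CPM in the V6.5 knockouts. Camk1d was at 7.14 and 12.8 CPM in the same wild types and 14.1, 20.0 and 17.7 CPM in the knockouts. These are the closest of many profiles over few libraries and are given as a description.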

How the data were processed

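The authors deposited 1 table of raw counts per gene symbol. Per the submitters' processing notes STAR, DESeq2 and mm10 were used. No source used here gives versions, the counter, the annotation, strand handling or the use of molecular identifiers. Of 30324 rows, 92 spike-in rows were left out, 9860 gene rows held no count and 1858 (6.15%) merged several symbols. filterByExpr, with genotype as the grouping and a minimum count of 10, left 12645 genes, which were scaled by TMM and tested in edgeR 4.0.16 (R 4.3.3) by the robust quasi-likelihood F test, with Benjamini-Hochberg adjustment over all tested genes and a threshold of 0.05. The knockout effect over all libraries used run and genotype as terms. Effects within runs, their difference and the run differences came from 4 group means (genotype by run), in which all libraries share the spread. CPM used TMM-scaled library sizes. The SE was taken as the size of the log2 value over the root of F, and intervals are at 95%. DESeq2 1.42.0 and limma 3.58.1 were alternatives. Gene positions are from GENCODE M21 (GRCm38).

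The 10 genes and all lists were chosen with earlier results of these data known. The named genes were the 10, Gzf1, the 3 nearest profiles to Fos and to Egr1, and genes of the lists. From each list, some of the called members and of the 2 with the highest mean level were named, not all. Others are said to be named after their values were seen. The analysis was tested on simulated data. For the knockout effect over all libraries 63% of 2-fold and 94% of 4-fold differences were recovered (12388 genes), and for the run difference in wild type 28% and 79% (12169 genes). Libraries of the same genotype and run differed by more than sampling noise (chi-square per degree of freedom 2.48 to 24.0), so none is a copy of another. Each was counted as 1 replicate, but this check cannot tell separate cultures from separate preparations of 1 culture.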

Additional observations from a re-analysis of the deposited data

How the results depend on the processing

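Over all libraries 4 genes passed in the knockout contrast, and 35 without the filter on low counts, 7 with DESeq2, 10 with limma voom, 2 without robust estimation, 2 without the run term and 2 to 4 with 1 library left out. The median of the 10 genes was 0.065 with limma voom. Within run2 the count was 0, and 7, 2 and 4 with no filter, DESeq2 and limma voom, 9 in the run2 libraries alone and 0 to 1 with 1 library left out. Within run1 it was 2, and 46 with no filter, 4 with DESeq2, 1 in the run1 libraries alone and 0 to 8 with 1 library left out; the median of the 10 genes was 0.44 to 0.66 in those last fits. For the difference between runs 1 gene passed with no filter, and the median was 0.59 with limma voom and 0.53 to 0.75 with 1 library left out. Between the runs 3081 genes differed in wild type, 4868 with limma voom and 883 to 4087 with 1 library left out (median of the 10 genes 0.60 to 0.95), and 3160 in knockout, with 892 to 3531. With 1 library left out, the run difference in wild type was -0.032 to 0.82 for Fos and -0.19 to 0.68 for Jun, below 0 without wild-type replicate 4, and in knockout it was -0.30 to 0.22 for Ier3, above 0 without knockout replicate 1, 3 or 5. The cause was not tested, except that fewer libraries or other genes entered. Replicate numbers are shared between genotypes, but number 4 joins different lines, so the numbers were not taken as pairs. Deviations of same-numbered libraries from their group means correlated across genes at -0.07, -0.07, 0.30 and 0.34 for numbers 1 to 4. In a group of 2 libraries the deviations mirror each other, so numbers 1 and 2 give the same value by construction. These correlations cannot decide whether the numbers are pairs. With replicate number as a block 6 genes passed and the median of the 10 genes was 0.13. Depth limits Egr2 most, with 17 to 45 counts per library.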

Other observations

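The RGM and run1 libraries differed in genes of several lists in both genotypes. Hspa8, a constitutive chaperone, was at 19.1 to 27.2 CPM in the 4 RGM libraries and 833 to 1134 CPM in the 5 run1 libraries, and Zfp42, a marker of naive stem cells, at 318 to 396 CPM against 32.2 to 38.2 CPM. Among targets of the serum response, Ctgf, a secreted matrix protein, was at 413 to 482 CPM against 76.1 to 139 CPM, and Cyr61, its relative, at 225 to 269 CPM against 60.2 to 94.8 CPM. Dusp4 was at 51.2 to 63.9 CPM against 2.34 to 10.1 CPM. For these 5 genes the runs did not overlap, and edgeR's quasi-likelihood test called the run difference in wild type and in knockout. Run and cell line cannot be told apart.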
